A study of Danio rerio with 6 samples.

Results

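Aminoacyl-tRNA synthetases are the enzymes that join each amino acid to its tRNA, and every protein made in the cytosol or in mitochondria depends on them. The deposited table of 37898 genes held 36 genes whose symbol follows the naming of this family, of which 21 were cytosolic enzymes, 14 were mitochondrial enzymes with a symbol ending in 2, and 1 was *qrsl1*. *qrsl1* encodes a subunit of the mitochondrial amidotransferase, which turns Glu-tRNA(Gln) into Gln-tRNA(Gln) and is not itself a synthetase. Genes were chosen by symbol alone, by a rule that used no measured value, though earlier results of these data were known. The libraries were made from whole zebrafish embryos at 4 dpf, with 3 libraries of *sart3* mutants (*sart3*-/-, homozygous for the smu471 nonsense allele) and 3 libraries of WT siblings from the same *sart3*+/- intercrosses, told apart by high-resolution melting genotyping. No drug, transgene or other allele was named for either group, and the number of embryos in each library is not given in the sources used here. Sart3 is a recycling factor of the U4/U6 snRNP, and the comparison asked how its loss changed the larval transcriptome.

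In vertebrates the cytosolic and mitochondrial sets of synthetases are for the most part encoded by separate nuclear genes, although *gars* and *kars* each supply both compartments in mammals. The enzymes fall into class I and class II, which have unrelated catalytic domains. In animals, several cytosolic enzymes sit together in the multisynthetase complex, held by scaffold proteins encoded by the *aimp* genes. Lack of amino acids raises many cytosolic synthetase transcripts in mammals through the transcription factor ATF4.

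The labels were checked on the targeted gene. Transcripts of *sart3* were lower in mutants, at 50.3 ± 2.79 CPM against 68.4 ± 2.1 CPM in siblings (SD, n = 3 each; CPM, counts scaled to the library size), with a log2 fold change of -0.44 (adjusted p = 0.0023, edgeR). Library totals lay between 16008788 and 17387137 counts in mutants and between 17586740 and 18310233 counts in siblings. Of 24809 genes with enough counts for a test, 6924 (27.9%) had an adjusted p under 0.05 in edgeR's quasi-likelihood test, 3368 (13.6%) higher and 3556 (14.3%) lower in mutants, and the median log2 fold change of all tested genes was 0.01. Marker lists of several tissues differed in the same libraries. Exocrine pancreas markers summed to 112 to 139 CPM in mutants and 5237 to 5561 CPM in siblings, with all 16 tested markers lower. Lens markers (12 of 13 lower) summed to 1615 to 2274 CPM in mutants and 5374 to 6375 CPM in siblings, and photoreceptor markers (11 of 12 lower) to 1716 to 1981 CPM in mutants and 4898 to 5982 CPM in siblings. For neurons (8 of 13 lower) the sums were 2993 to 3214 CPM in mutants and 3609.8 to 3853 CPM in siblings, and for dividing cells (10 lower and 1 higher of 13) they were 672 to 729 CPM in mutants and 974 to 1077 CPM in siblings. Liver markers (5 lower and 2 higher of 15) had 5222 to 6972 CPM in mutants and 6013 to 7013 CPM in siblings. Skeletal muscle markers (10 higher and 2 lower of 14) had 66359.7 to 68805 CPM in mutants and 51531 to 57924 CPM in siblings. No marker was at 0 in every library, and the part of these tissue differences in the results on synthetases was not tested. In RNA of whole embryos, fewer cells of a type and less RNA per cell cannot be told apart.

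The levels of the family were described first on FPKM (fragments scaled by gene length and library size), which can be compared between genes. Of the 36 genes, 32 had enough counts for a test, 19 cytosolic, 12 mitochondrial and *qrsl1*. Cytosolic enzymes had a median of 20.3 FPKM in mutants and 22.0 FPKM in siblings, against 3.63 FPKM in mutants and 3.77 FPKM in siblings for mitochondrial enzymes. The highest levels over all libraries were those of *dars* (aspartate, 57.3 FPKM), *sars* (serine, 56.4 FPKM) and *gars* (glycine, 50.2 FPKM). In siblings *dars* had 63.4 ± 5.88 and *sars* 58.1 ± 6.90 FPKM (SD, n = 3), so the order of the top pair lay within their spread. All of the 18 highest genes were cytosolic. *iars2* (isoleucine, 5.56 FPKM) was the highest mitochondrial gene, and *rars* (arginine, 5.38 FPKM) was the lowest tested cytosolic gene. The named gene model of *aars2* (alanine) was lowest with 0.383 FPKM, but a second, unnamed model at its place had 2.09 ± 0.0401 FPKM in mutants and 1.95 ± 0.147 FPKM in siblings (SD, n = 3 each), so this place does not give the level of the gene. *wars* (tryptophan) and *larsa* (leucine) were counted on models of only 915 and 1071 bases, shorter than those of the other tested members, so their FPKM rest on less sequence. *iars2* was counted on the longest model, of 8372 bases. It had 46.4 CPM in mutants and 47.7 CPM in siblings, near *cars* (cysteine) with 45.1 and 47.2 CPM on 3237 bases. The order by FPKM thus also rests on the annotated lengths.

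**Figure D1:**
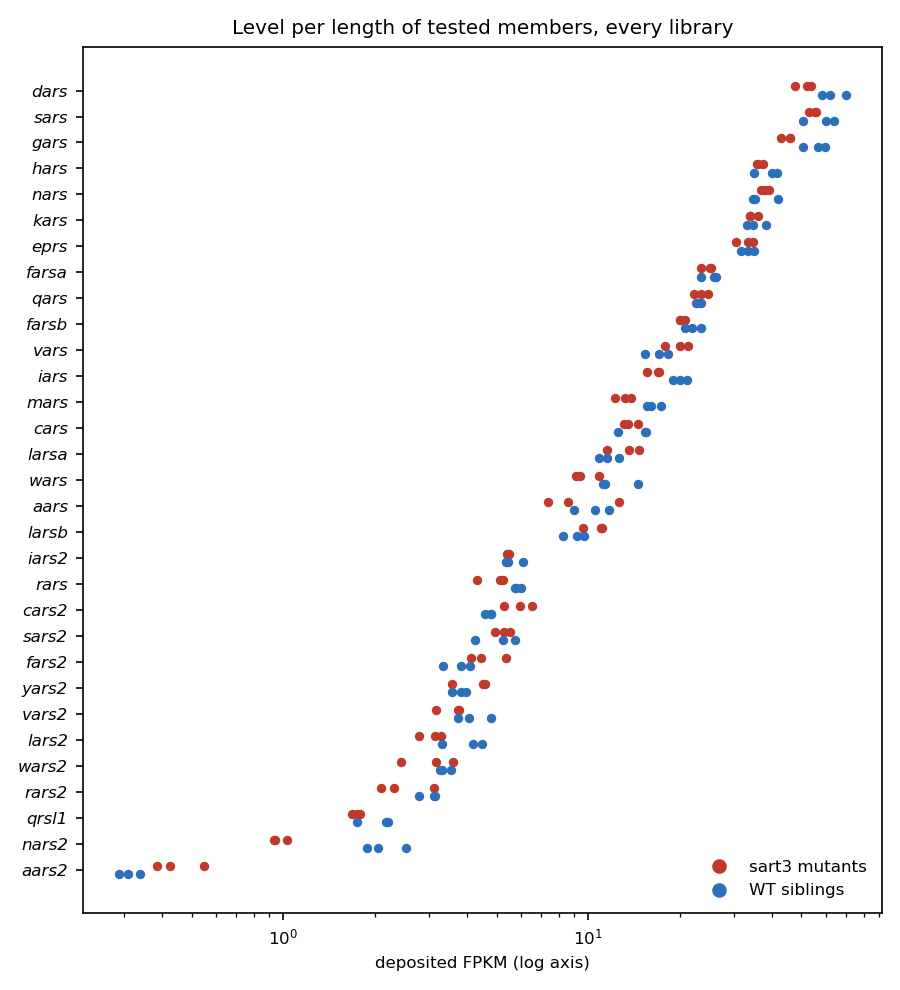
Deposited FPKM (log axis) of 31 of the 32 tested members, ordered by their mean over all libraries, with the 3 mutant libraries in red above the 3 sibling libraries in blue. The cytosolic genes fill the upper places, with *dars* at a mean of 57.3 FPKM. The named model of *aars2* is last at 0.383 FPKM, and an unnamed model at its place, not shown here, also has reads.

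Added up per library, the cytosolic members held 0.144%, 0.144% and 0.140% of all counts in mutants and 0.154%, 0.140% and 0.154% in siblings. The mitochondrial members held 0.0130%, 0.0136% and 0.0136% in mutants and 0.0136%, 0.0127% and 0.0145% in siblings. For both sets, the mutant values overlapped those of siblings. The summed CPM of the cytosolic members was 11.0, 10.6 and 10.3 times that of the mitochondrial members in mutants, and 11.3, 11.1 and 10.7 times in siblings. All these sums hold named genes only. Reads on unnamed models at the places of some members, described below, are left out of both sets. Such models had 195 to 224 counts per library at *aars2* and 418 to 547 at *aars*.

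In mutants, 5 of the 32 tested members passed the test, and all 5 were lower. These were *nars2* (asparagine, mitochondrial) and the cytosolic *mars* (methionine), *gars* (glycine), *dars* (aspartate) and *iars* (isoleucine). The 5 genes are 15.6% of the tested members, beside 27.9% of all tested genes called in either direction and 14.3% called lower. No member was called higher by edgeR, DESeq2 or limma-voom, beside 13.6% of all tested genes. At an unadjusted p under 0.05, 3 members were higher and 6 were lower in edgeR, 1 and 5 in DESeq2, and 3 and 5 in limma-voom. In edgeR, 9857 of the 24809 tested genes had an unadjusted p under 0.05 in either direction. CPM values of all mutants lay below those of all siblings in 10 of the 32 members and above them in 4, beside 22.3% and 22.8% of all tested genes, and in 18 members the groups overlapped. The median log2 fold change of all tested members was -0.07.

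**Figure D2:**
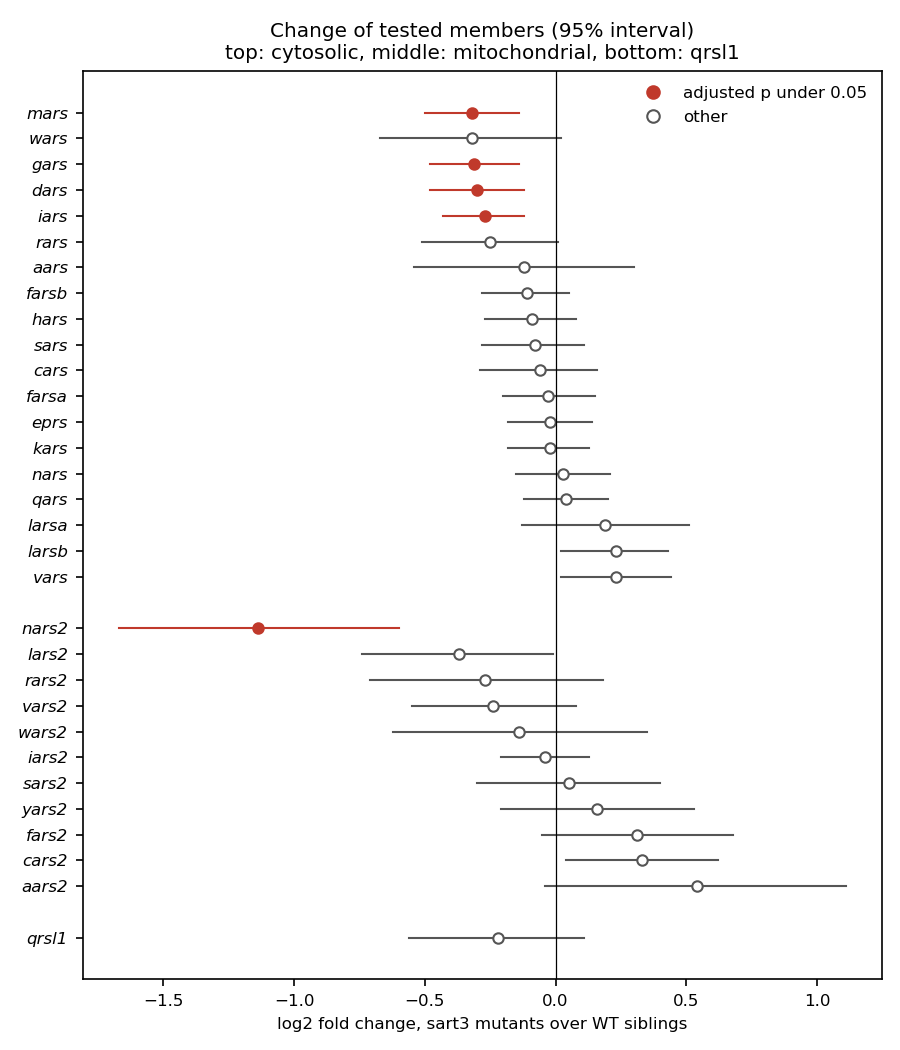
Log2 fold change of mutants over siblings with its 95% interval for 31 of the 32 tested members, cytosolic genes on top, mitochondrial genes in the middle and *qrsl1* at the bottom. Filled red points mark the 5 genes with an adjusted p under 0.05, all of them left of 0, with *nars2* at -1.14 standing apart from the rest.

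*nars2*, which encodes the mitochondrial asparaginyl-tRNA synthetase, had the largest change of any tested member. The gene lies on chromosome 15 from 9601637 to 9631592 (GRCz11, minus strand). It had 1.85, 1.68 and 1.67 CPM in mutants, against 3.59, 4.52 and 3.38 CPM in siblings. Every mutant value was thus well below the lowest sibling. These levels rested on 32, 27 and 28 counts in mutants and 64, 80 and 60 counts in siblings. The log2 fold change was -1.14 (SE 0.23, 95% interval -1.67 to -0.60, adjusted p = 0.0077, edgeR), or 0.454 times the sibling level. With each library left out in turn it lay between -1.22 and -1.02 and passed the test in all 6 fits. *nars*, the cytosolic enzyme for the same amino acid, had 94.3, 91.3 and 96.7 CPM in mutants, against 102, 86.0 and 87.8 CPM in siblings. The groups overlapped, with a log2 fold change of 0.03 (95% interval -0.15 to 0.21, adjusted p = 0.79, edgeR).

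The 4 cytosolic genes fell by much less, between 0.27 and 0.32 on the log2 scale. *mars*, the enzyme that charges both the initiator and the elongator methionine tRNAs, had 42.5, 44.4 and 39.1 CPM in mutants, against 54.6, 50.4 and 52.2 CPM in siblings (log2 fold change -0.32, SE 0.08, adjusted p = 0.017, edgeR). *gars*, the enzyme for glycine, had 122, 114 and 121 CPM in mutants, against 156, 134 and 152 CPM in siblings (log2 fold change -0.31, SE 0.07, adjusted p = 0.015, edgeR). *dars*, the enzyme for aspartate, had 107, 104 and 94.5 CPM in mutants, against 136, 124 and 117 CPM in siblings (log2 fold change -0.30, SE 0.08, adjusted p = 0.023, edgeR). In each of these genes the 3 mutants lay below the 3 siblings. The same held for *iars*, the enzyme for isoleucine, with 68.3, 67.8 and 62.5 CPM in mutants, against 83.0, 76.5 and 80.7 CPM in siblings (log2 fold change -0.27, SE 0.07, adjusted p = 0.019, edgeR). The mutant level was 0.800 times that of siblings for *mars*, 0.806 times for *gars*, 0.811 times for *dars* and 0.827 times for *iars*. *mars*, *gars* and *dars* each passed the test in 4 of the 6 fits with 1 library left out, and *iars* in 3.

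**Figure D3:**
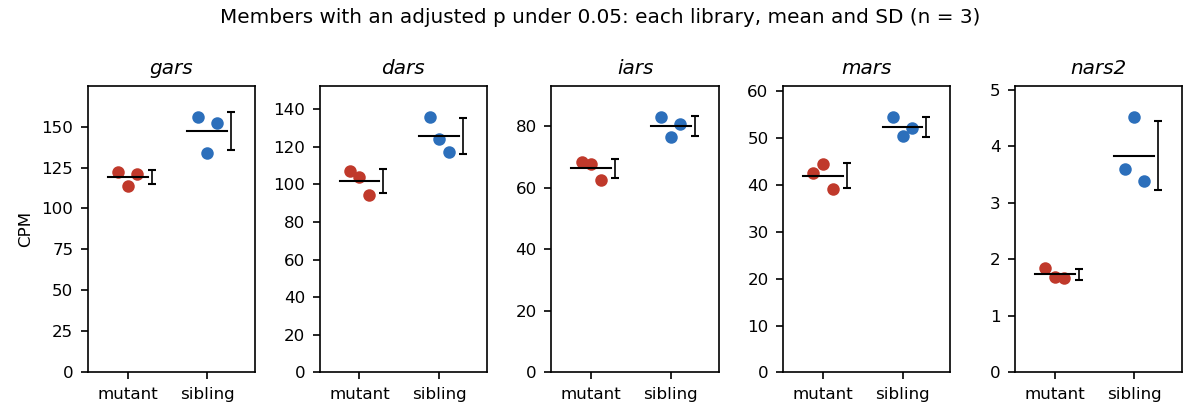
CPM of the 5 members with an adjusted p under 0.05, with mutant libraries in red on the left, sibling libraries in blue on the right, a line at the mean and a bar for the SD (n = 3 each). In every panel the mutants lie below the siblings, and the axis of *nars2* ends below 6 CPM, whereas *gars* reaches 156 CPM.

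With 1 library left out, the cytosolic genes lost calls while their changes stayed of like size, with log2 fold changes between -0.33 and -0.23 in the fits that lost a call. Without mutant replicate 2 the adjusted p was 0.067 for *dars*, 0.070 for *gars* and 0.054 for *iars*. Without mutant replicate 3 it was 0.074 for *dars*, 0.063 for *iars* and 0.055 for *mars*, and without mutant replicate 1 it was 0.053 for *mars*. Without sibling replicate 3 it was 0.054 for *gars* and 0.059 for *iars*. In number, 2 members were called without mutant replicate 2 and 2 without mutant replicate 3, beside 18.6% and 22.3% of all tested genes, and 3 without sibling replicate 3, beside 20.8%. All 5 genes kept their direction in each of these fits.

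Compared by compartment, 4 of 19 cytosolic members (21.1%) and 1 of 12 mitochondrial members (8.33%) were called, all lower, beside 14.3% of all tested genes called lower and 27.9% called in either direction. The median log2 fold change was -0.08 for cytosolic members, with a range of -0.32 to 0.23, and -0.02 for mitochondrial members, with a wider range of -1.14 to 0.54. Without sibling replicate 2 the cytosolic median was -0.17. The precision differed between the compartments. Members were counted with 136 to 3630 reads per library for cytosolic genes and 27 to 906 for mitochondrial genes, and the median SE of the log2 fold change was 0.08 and 0.16. Among members that were not called, the 95% interval stayed within 0.5 of zero on the log2 scale for 11 of 15 cytosolic genes and for 3 of 11 mitochondrial genes. It stayed within 1 of zero for all 15 cytosolic genes and for 10 of the 11 mitochondrial genes, the exception being the named model of *aars2*. With the unnamed model at its place added, the interval of *aars2* was -0.07 to 0.42.

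For 11 amino acids the table held a tested gene for each compartment, and the ratio of the mitochondrial to the cytosolic transcript was taken within each library (with *larsb* and *farsa* as the cytosolic genes for leucine and phenylalanine), which does not depend on how libraries are scaled. The difference of the log2 ratio between mutants and siblings was positive in 7 pairs and negative in 4. Its values did not overlap between the groups in 6 pairs, and no share for ratios of other gene pairs was taken. For single genes, the mutants lay all below the siblings in 22.3% of all tested genes and all above them in 22.8%. The *nars2* to *nars* ratio was -5.67, -5.76 and -5.85 on the log2 scale in mutants, against -4.83, -4.25 and -4.70 in siblings, a difference of -1.17. *lars2* over *larsb* (leucine) was also lower in every mutant, with a mean of -2.78 ± 0.04 in mutants and -2.19 ± 0.14 in siblings (SD, n = 3 each, difference -0.59), as was *vars2* over *vars* (valine), with -2.60 ± 0.05 in mutants and -2.14 ± 0.07 in siblings (difference -0.47). Higher in every mutant were *cars2* over *cars* (cysteine, difference 0.38), *fars2* over *farsa* (phenylalanine, 0.33) and *iars2* over *iars* (isoleucine, 0.24). Each of these 6 pairs had the smallest p that 3 against 3 libraries can give, 0.1 in a two-sided exact permutation test. After Benjamini-Hochberg adjustment over the 11 pairs it was 0.183. No pair could have passed at 0.05, so the test does not decide for or against these differences. The largest difference of the log2 ratio among the other pairs was 0.67 for *aars2* over *aars* (exact permutation test p = 0.200), whose groups overlapped. It was 0.36 without mutant replicate 1, and 0.33 when the counts of both genes were summed with the unnamed models at their places.

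Most other members differed by little. Of the cytosolic genes, *wars* was at -0.32 on the log2 scale (adjusted p = 0.15, edgeR) and *rars* at -0.25 (adjusted p = 0.14), both with every mutant below every sibling. The next cytosolic genes below zero were *aars* at -0.12, *farsb*, a subunit of the phenylalanine enzyme, at -0.11, *hars* (histidine) at -0.09, *sars* at -0.08 and *cars* at -0.06. Log2 fold changes of *farsa*, the partner subunit of *farsb*, of *eprs* (glutamate and proline in 1 protein) and of *kars* (lysine) lay between -0.03 and -0.02. *qars* (glutamine) was at 0.04. On the positive side, *larsa* was at 0.19, and *larsb* and *vars* were both at 0.23 with adjusted p of 0.091 and 0.10 (edgeR). *larsb* had 59.6, 60.1 and 52.0 CPM in mutants, against 51.6, 45.0 and 50.2 CPM in siblings, so that the lowest mutant was only just above the highest sibling.

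Among mitochondrial members that were not called, *lars2* was lowest at -0.37 (adjusted p = 0.12, edgeR), followed by *rars2* at -0.27, *vars2* at -0.24 and *wars2* at -0.14. *iars2*, partner of *iars*, was at -0.04 with 46.1, 46.4 and 46.7 CPM in mutants, against 50.8, 45.7 and 46.5 CPM in siblings. The groups overlapped. *sars2* was at 0.05, *yars2* (tyrosine) at 0.16, *fars2* at 0.31, *cars2* at 0.33 (adjusted p = 0.089, edgeR) and *aars2* at 0.54 (adjusted p = 0.15, edgeR). *aars2* had 3.47, 2.43 and 2.69 CPM in mutants, against 1.80, 2.15 and 1.97 CPM in siblings, from 32 to 60 counts. All of its mutant values were above those of siblings, but the 95% interval of the log2 fold change ran from -0.04 to 1.11. *qrsl1* had 8.62, 8.10 and 8.42 CPM in mutants, against 10.3, 8.42 and 10.6 CPM in siblings, with a log2 fold change of -0.22 (adjusted p = 0.30, edgeR).

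The calls were also counted by the structure of the enzymes. In class I, 2 of 16 tested members were called, *mars* and *iars*, and in class II 3 of 14, *nars2*, *gars* and *dars*, with *eprs* belonging to both classes and left out. Of the 9 genes for enzymes of the multisynthetase complex, 3 were called (*mars*, *dars* and *iars*) with a median log2 fold change of -0.02. The other cytosolic enzymes had 1 call in 10 (*gars*) with a median of -0.09. These counts rest on 1 to 3 genes each, beside 14.3% of all tested genes called lower, and the differences between the sets were not tested. The 36 members lay on 21 chromosomes. Only *tars* (threonine) lay on chromosome 5, where *sart3* lies, at a distance of 23.9 Mb.

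Several members overlapped other annotated genes, so part of their counts is uncertain. The 3 overlapping genes with the most counts were met by *farsa*, which overlapped *ilf3b* (2876 to 3989 counts per library) by 190 bases on the same strand, *iars2*, which overlapped *rab3gap2* by 1732 bases on the opposite strand, and *kars*, which overlapped *gcshb* by 279 bases on the same strand. *dars* overlapped *tmbim1b* by 1175 bases on the opposite strand, with 94 to 151 counts on that gene, and over 60476 bases the gene CR522881.1 on the same strand, which had 0 to 4 counts. *larsa* overlapped *rbm27* by 11083 bases on the opposite strand, with 241 to 416 counts on that gene beside 205 to 275 on *larsa*. *nars2*, *mars*, *gars* and *iars* overlapped none.

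*tars* and *yars*, cytosolic enzymes for threonine and tyrosine that every cell needs, had 0 or 1 count in each library, and *pars2* and *mars2*, mitochondrial enzymes for proline and methionine, had 0. None of these genes was tested. The same table holds 5997 models with no gene name that the authors added to the annotation, and 3904 of all models lie on alternate contigs of GRCz11, which hold second versions of some chromosome regions. At the place of each of these 4 genes stood an unnamed model on an alternate contig with a synthetase domain in its description and with reads. The model at the place of *yars* had 288, 131 and 198 counts in mutants and 156, 175 and 155 in siblings. At the place of *tars* stood a pair of such models on separate contigs, the one with 364, 425 and 432 counts in mutants and 382, 468 and 410 in siblings, and the other with 198, 275 and 118 counts in mutants and 202, 182 and 202 in siblings. Mutant and sibling libraries overlapped at the models of *yars* and *tars*.

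The model at the place of *pars2* differed between the groups. This model carries an anticodon binding domain and a class II core domain and lies on an alternate contig of chromosome 6, from 30682274 to 30686727 on the minus strand. It had 86, 101 and 96 counts in mutants, against 27, 31 and 20 counts in siblings, or 4.98, 6.29 and 5.73 CPM in mutants, against 1.51, 1.75 and 1.13 CPM in siblings. The lowest mutant thus had more than any sibling by a wide margin. The log2 fold change was 1.95 (SE 0.24, 95% interval 1.39 to 2.50, adjusted p = 6.0e-04, edgeR), and it passed in all 6 fits with 1 library left out. Of the models tested on alternate contigs, 700 of 3272 (21.4%) were called, and the other 5 tested models on the same contig were not. Of these 5, 1 also had every mutant above every sibling, with 9.20 to 13.7 CPM in mutants and 7.91 to 8.39 CPM in siblings. Its log2 fold change was 0.48 (adjusted p = 0.064, edgeR). Over the 6 tested models of this contig, 4 log2 fold changes were above zero and 2 below. The identity of the model at the place of *pars2*, and of the unnamed models at the places of other members, rests on place and domains alone.

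*aars* and *aars2* had reads on the named gene and on a second model. The model at the place of *aars* had 418, 443 and 476 counts in mutants and 513, 528 and 547 in siblings (log2 fold change -0.16, adjusted p = 0.25, edgeR). The named *aars* had 579, 624 and 954 counts in mutants and 930, 721 and 845 in siblings, with mutant replicate 3 far above the other mutants, and without that library its log2 fold change was -0.37 (adjusted p = 0.078, edgeR). The model at the place of *aars2* had 224, 210 and 211 counts in mutants and 222, 195 and 221 in siblings, several times the counts of the named gene. Summed over both models the log2 fold change was -0.13 for *aars* (adjusted p = 0.50) and 0.17 for *aars2* (95% interval -0.07 to 0.42, adjusted p = 0.27, edgeR), so that the value of *aars2* moved from 0.54. For genes read only through alternate models, the sum gave 0.07 for *tars*, 0.42 for *yars* and 1.95 for *pars2*. With these sums, 6 members were called, the same 5 and *pars2*, beside 27.9% of all tested genes. At the place of *mars2* lay a model on the opposite strand that joins domains of Mediator subunit 12 with a synthetase domain, so its counts (log2 fold change -0.47, adjusted p = 0.052, edgeR) were not assigned to *mars2*. In CPM every mutant lay below every sibling at that model, as in 22.3% of all tested genes.

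**Figure D4:**
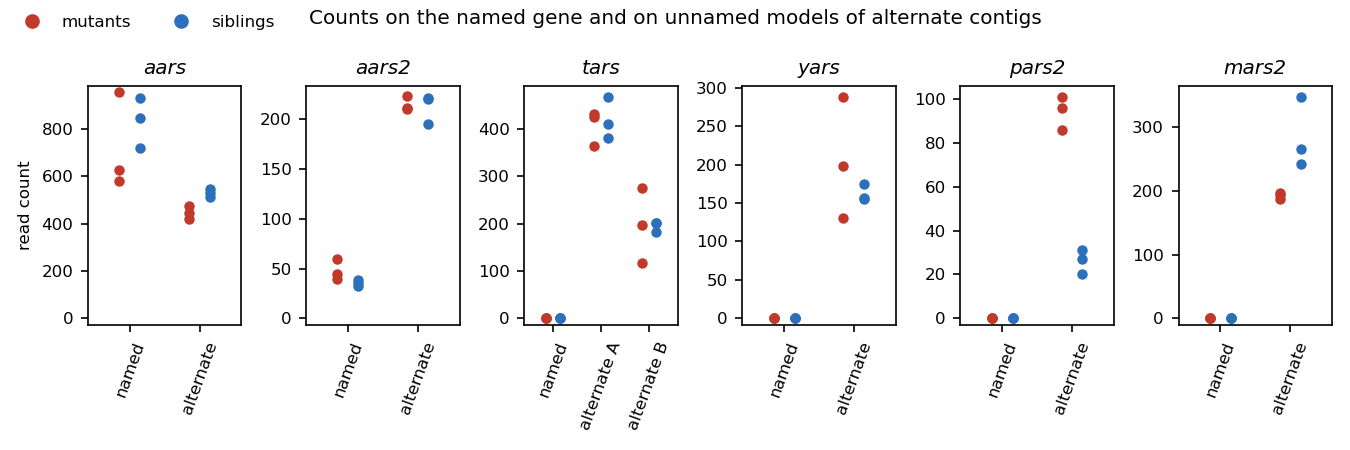
Read counts per library on the named gene and on the unnamed models at its place, with mutants in red on the left and siblings in blue on the right of each position; the model at *mars2* lies on the opposite strand. The named *tars*, *yars*, *pars2* and *mars2* stay at 0 or 1 count, and at the model of *pars2* the mutants (86 to 101 counts) lie above the siblings (20 to 31 counts).

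Splicing was examined in the authors' tables of significant rMATS events, which hold the inclusion and skipping reads of both groups. Of 2075 events, 1 fell in a member, a skipped exon of *cars*, the cysteine enzyme, so 3.12% of the tested members had an event, beside 6.22% of all tested genes. The exon has 237 bases and lies on chromosome 7 from 31827110 to 31827346 (GRCz11, minus strand). Its inclusion level, the share of transcripts with the exon, was 0.540, 0.306 and 0.593 in mutants, against 0.342, 0.151 and 0.329 in siblings, with 43 to 93 inclusion and skipping reads behind each value. The lowest mutant was below the highest sibling. The means were 0.480 ± 0.153 in mutants and 0.274 ± 0.107 in siblings (SD, n = 3 each), a difference of 0.206. A two-sided exact permutation test gave p = 0.300. With 3 against 3 libraries its p cannot be smaller than 0.1, so no difference could have passed. The test therefore does not decide for or against the event that the authors called. The effective length was 386 bases for the inclusion form and 149 for the skipping form. The inclusion reads thus appear to include reads inside the exon as well as junction reads. As a share of reads, not corrected for these lengths, inclusion was 0.753, 0.533 and 0.791 in mutants and 0.574, 0.316 and 0.559 in siblings. The 95% Wilson intervals of this share were from 0.391 to 0.671 for the lowest mutant and from 0.442 to 0.697 for the highest sibling. Events that the authors did not call are not in these tables, which give the values of a group without library names. The total level of *cars* was 44.4, 48.0 and 43.0 CPM in mutants and 49.1, 41.2 and 51.2 CPM in siblings, with a log2 fold change of -0.06.

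The synthetases were then set beside other genes of tRNA use, in lists written by function. Cytosolic elongation factors, which bring charged tRNA to the ribosome and move it on, had the highest share of calls among the lists of translation and amino acid response. Of 13 tested genes, 8 passed and all 8 were lower (61.5%, beside 14.3% of all tested genes called lower), with a list median of -0.34 on the log2 scale. *eef1a1l1*, which carries aminoacyl-tRNA, had 6355, 6449 and 5879.8 CPM in mutants, against 10399, 9483 and 9347 CPM in siblings (log2 fold change -0.65, adjusted p = 2.6e-04, edgeR). *eef2b*, the translocation factor, had a log2 fold change of -0.81, and *eef1g*, a subunit of the exchange factor of eEF1A, had -0.67. Each of these 3 genes passed in all 6 fits with 1 library left out.

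Scaffold genes of the multisynthetase complex did not move in 1 direction. *aimp2* had 76.2, 72.3 and 72.0 CPM in mutants, against 92.1, 87.4 and 83.1 CPM in siblings (log2 fold change -0.25, adjusted p = 0.024, edgeR), but passed in only 2 of the 6 fits with 1 library left out, those without sibling replicates 1 and 3 (adjusted p of 0.033 to 0.090 over the 6 fits). *aimp1*, which the list had under other symbols and which was added after its values were seen, had 63.1, 62.4 and 62.3 CPM in mutants, against 53.0, 49.0 and 50.5 CPM in siblings (log2 fold change 0.30, adjusted p = 0.011, edgeR), and passed in 5 of the 6, with an adjusted p of 0.059 without sibling replicate 2. *eef1e1*, which encodes a further scaffold protein, was at -0.18 (adjusted p = 0.24, edgeR).

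Of the 4 tested genes of tRNA amidation and editing, *dtd2*, a deacylase that removes wrongly joined amino acids, was higher in mutants with 7.52, 7.60 and 7.64 CPM, against 3.31, 3.11 and 4.11 CPM in siblings (log2 fold change 1.11, adjusted p = 0.0022, edgeR), and the other 3 did not pass. Of the 4 tested genes listed under selenocysteine tRNA, *eefsec*, the elongation factor for selenocysteine, was higher with 24.7, 26.4 and 27.4 CPM in mutants, against 13.6, 11.6 and 15.4 CPM in siblings (log2 fold change 0.95, adjusted p = 7.7e-04, edgeR). That list also holds *tarsl2*, a second cytosolic threonine enzyme that the symbol rule leaves out, which had 42.5, 48.2 and 43.2 CPM in mutants, against 41.3, 39.1 and 35.5 CPM in siblings (log2 fold change 0.21, adjusted p = 0.12, edgeR). Both *dtd2* and *eefsec* passed in all 6 fits with 1 library left out.

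Genes of RNA polymerase III, which transcribes tRNA genes, and of its factors had 4 higher and 1 lower call among 22 tested genes, or 22.7% called beside 27.9% of all tested genes. *brf2*, a subunit of the factor that starts transcription of U6 snRNA and similar genes rather than of tRNA genes, had 28.9, 29.9 and 28.2 CPM in mutants, against 2.47, 1.36 and 2.08 CPM in siblings, with a log2 fold change of 3.87 (adjusted p = 3.9e-06, edgeR). *brf1a*, its counterpart at tRNA genes, had 13.8, 14.3 and 12.5 CPM in mutants, against 10.9, 8.03 and 9.41 CPM in siblings (log2 fold change 0.52, adjusted p = 0.031, edgeR). The polymerase subunit gene *polr3glb* was lower, at -0.76. The count of calls in this list fell to 2 or 3 whenever a library other than sibling replicate 1 was left out, beside 18.6% to 22.6% of all tested genes. With 1 library left out, *brf1a* passed in 2 of the 6 fits, whereas *brf2* passed in all 6.

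Of 67 tested genes of tRNA processing and modification, 4 were higher and 8 were lower (17.9%, beside 27.9% of all tested genes), with a median of -0.12. Those of the lower genes with the smallest adjusted p were *tsen15*, a subunit of the tRNA splicing endonuclease, at -1.43 on the log2 scale, *pop1*, a subunit of RNase P, at -1.36 and *mettl1*, the tRNA m7G methyltransferase, at -1.19. *mettl1* had 6.19, 7.66 and 6.75 CPM in mutants, against 15.9, 15.4 and 15.8 CPM in siblings (adjusted p = 3.1e-04, edgeR). *trmt2a*, a methyltransferase of tRNA uridine, was higher at 0.91. The list had 6 calls without mutant replicate 1 and 7 without either mutant replicate 2 or 3, and the genes named here passed in all 6 fits. Of all tested genes, 19.2%, 18.6% and 22.3% were called without mutant replicates 1, 2 and 3.

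In mitochondrial translation, *tufm*, the mitochondrial elongation factor that carries aminoacyl-tRNA, was higher with 137, 123 and 132 CPM in mutants, against 110.2, 97.2 and 95.5 CPM in siblings (log2 fold change 0.37, adjusted p = 0.0076, edgeR). *mtfmt*, which formylates the initiator Met-tRNA of mitochondria, was at 0.50 (adjusted p = 0.018, edgeR), and passed in 4 of the 6 fits with 1 library left out. In all, 2 of the 13 tested genes listed as mitochondrial translation factors were higher and 1 was lower (23.1%, beside 27.9% of all tested genes). The list had 1 call left without sibling replicate 3 or without mutant replicate 2, beside 20.8% and 18.6% of all tested genes. It also holds *mtrex* (log2 fold change -0.29, not called), which encodes a nuclear RNA helicase. Its counts are therefore not of mitochondrial translation factors alone. Of 67 tested genes of mitochondrial ribosomal proteins, 11 were higher and 1 was lower, with a median of 0.08, or 17.9% called beside 27.9% of all tested genes. The lower gene, *mrpl58*, is also the lower gene of the translation factor list. *mrps31* had the largest change, with 55.1, 48.3 and 47.4 CPM in mutants, against 9.93, 9.72 and 8.06 CPM in siblings (log2 fold change 2.44, adjusted p = 3.2e-06, edgeR), followed by *mrps33* at 1.27. Without mutant replicate 1 this list had 6 calls, all higher, beside 19.2% of all tested genes called in either direction.

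**Figure D5:**
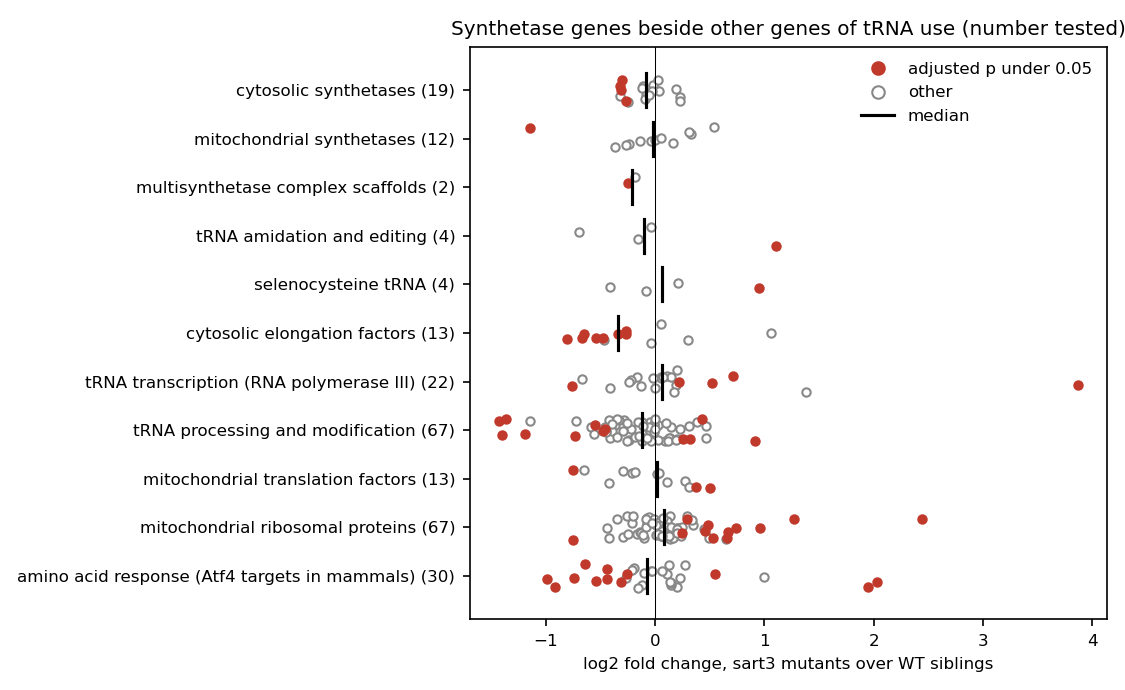
Log2 fold change of mutants over siblings for every tested gene of the synthetase sets and of 9 lists of related genes, with filled points for an adjusted p under 0.05, a bar at each list's median and the number tested in brackets. The elongation factors have a median of -0.34, while both synthetase sets have medians within 0.1 of zero.

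Genes of the amino acid response were listed because most of their mammalian counterparts share ATF4 as activator with cytosolic synthetases. *atf4a* itself and the eIF2 kinase gene *eif2ak3* are in the list too, so its calls do not count ATF4 targets alone. Of 30 tested genes, 3 were higher and 9 were lower, beside 27.9% of all tested genes called, with a median of -0.07. *atf4a* itself had 225, 215 and 203 CPM in mutants, against 295, 292 and 286 CPM in siblings (log2 fold change -0.44, adjusted p = 9.8e-04, edgeR). *cth*, of cysteine synthesis, was at -0.99, *phgdh*, of serine synthesis, at -0.92 and *slc7a3a*, a carrier of cationic amino acids, at -0.74. *asns*, asparagine synthetase, a strong ATF4 target in mammals, had 29.5, 31.0 and 32.1 CPM in mutants, against 35.6, 30.2 and 28.6 CPM in siblings (log2 fold change -0.03, adjusted p = 0.87, edgeR). The higher genes were *atf3* at 2.03, a stress-induced transcription factor, *eif2ak3* at 1.95, a kinase of eIF2 at the endoplasmic reticulum, and *eif4ebp1* at 0.55, a repressor of translation initiation. *ddit3* at 0.27 and *trib3* at 0.23 did not pass, with adjusted p of 0.092 and 0.22 (edgeR). The named *chac1* had no counts, and whether an unnamed model at its place had reads was not examined. Every gene of this list named as higher or lower passed in all 6 fits with 1 library left out.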

How the data were processed

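RNA of whole embryos was sequenced, 3 libraries per genotype, and per the labels reads were aligned with HISAT2 2.0.5 to GRCz11 and counted with featureCounts 1.5.0-p3. Whether strand was used in counting is not given in the sources used here. The authors deposited counts per gene without normalization and FPKM made from them, and 0 columns of single libraries were left out. They also deposited rMATS events they called significant, with inclusion and skipping read counts and inclusion levels as a fraction. Their columns of p-values, FDR and inclusion differences were not used. Mutants were taken as the first rMATS group from the order in the table names.

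Counts were tested with edgeR 4.0.16 in R 4.3.3 (filterByExpr, TMM factors of 0.975 to 1.01, quasi-likelihood test, two-sided, Benjamini-Hochberg over all tested genes, limit 0.05). limma 3.58.1 and DESeq2 1.42.0 were alternatives, as were RLE and upper-quartile factors, no filter, 10 counts in every library, a replicate block, a minimum size of change (1 on the log2 scale) and each library left out. Python 3.11.15, pandas 2.3.3, numpy 2.4.6, scipy 1.17.1 and matplotlib 3.10.9 served for tables, exact tests and plots. Scripts were tested on simulated data. Wilson intervals cover counting error only. The authors call the libraries biological replicates, but nothing states that those of a group came from separate clutches. The p-values therefore measure the spread between these libraries, part of which may be technical. Replicates differed beyond sampling noise (chi-square per degree of freedom of 4.30 to 12.9).

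Members and lists were chosen with earlier results of these data known. One member is counted but not reported here by name. By rule the members were named, with values per library for called members that changed by 0.4 or more on the log2 scale, for pairs of enzymes with a called member and for *qrsl1*, and up to 3 higher and 3 lower genes per list. Values per library of other genes, alternate-contig sums and pair ratios were added after values were seen. Promoters and proteins were not analysed here.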

Additional observations from a re-analysis of the deposited data

How the results depend on the processing

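The same 5 members were called with DESeq2, limma-voom, RLE and upper-quartile factors, without a filter, with 10 counts in every library and with a replicate block. These settings called 20.3% to 29.3% of all tested genes. When calls also needed a log2 change of 1 in size, only *nars2* was left, so 1 member, 0 cytosolic and 1 mitochondrial were called. No share of all tested genes was taken at this size. With counts summed over alternate contigs, chosen after seeing the data, 2 mitochondrial members were called, *nars2* and *pars2*, beside 27.9% of all tested genes. With 1 library left out, 2 to 5 members were called, 1 to 4 of them cytosolic and 1 mitochondrial, beside 18.6% to 28.0% of all tested genes. The cytosolic median then lay between -0.17 and -0.03, and the mitochondrial between -0.11 and 0.01. Of 448 refits of single members, 439 kept their side of the threshold and 9 lost the call, all 9 with a library left out, and the cause was not tested. Left-out libraries gave *cars* inclusion differences of 0.144 to 0.293. Of 66 pair ratios with a library left out, 3 changed sign, all of *rars2*.

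Mutants and siblings share replicate numbers, but same-numbered libraries did not deviate together (r of -0.10 to 0.05), so no pairing by number showed in these values. This does not settle whether they were collected in pairs. The replicate block called 5 members, 5941 genes in all, and 3 genes of the RNA polymerase III list instead of 5. Depth limits the mitochondrial members, and absence of a call there does not show an equal level.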
